A study of Macaca mulatta with 22 samples.

Results

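The genes described here are the cap-binding EIF4E family of the rhesus macaque and its closest partners: EIF4E, EIF4E1B, EIF4E2 and EIF4E3, the inhibitory binding proteins EIF4EBP1 and EIF4EBP2, and the transporter and repressor EIF4ENIF1. They were matched by gene symbol, which picked 7 of the 35468 entries of the deposited expression table. The set was chosen with earlier results of these data known, so p-values such as those of EIF4E are no independent test. The table holds RPKM values (reads scaled by gene length and by the library's total, so a level per length) for 22 libraries, each made from 1 oocyte or 1 embryo. The 7 oocytes were 2 with a germinal vesicle (GV), 2 in metaphase I (MI) and 3 in metaphase II (MII). The 15 embryos were 3 with pronuclei (PN), 2 of 2 cells (2C), 3 of 4 cells (4C), 2 of 8 cells (8C), 3 morulae (Mo) and 2 blastocysts (Bl). Oocytes had been taken after death from donors given hormones to superovulate, and embryos had been made by sperm injection and grown in culture. All were untreated and no genotype is given. The labels name no animal, so p-values measure only the spread between these single oocytes and embryos. The libraries of all stages were primed on the poly(A) tail of mRNA, so a change in tail length and a change in mRNA amount cannot be told apart.

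EIF4E binds the cap at the 5′ end of an mRNA and brings it to the scaffold EIF4G and the helicase EIF4A, the complex that recruits the small ribosomal subunit. The binding proteins of the EIF4EBP group occupy the EIF4G site of EIF4E until the kinase mTORC1 phosphorylates them, and EIF4ENIF1 (4E-T) holds EIF4E and mRNA in repressed cytoplasmic granules. EIF4E1B is known as a form restricted to oocytes and early embryos that binds repressed maternal mRNA, EIF4E2 (4EHP) is a cap-binding protein that does not join EIF4G and serves repression, and EIF4E3 is an atypical cap-binding member. Oocytes store mRNA in masked form, with poly(A) tails that lengthen or shorten, and the embryo's own genome becomes active several divisions later.

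Depth estimated from the smallest steps of the values was 5.6 to 21.4 M reads a library, with the lowest candidate taken where 5 libraries allowed more than 1. Both ends depend on that choice: 8C library 2 allowed 5.6 or 11.2 M, and MI library 1 allowed 12.3 or 24.4 M. Mo library 2 stood apart: 4277 entries reached 1 RPKM in it, against 6763 to 10017 in the other libraries, and the lowest correlation between libraries of 1 stage (Pearson r of log2 values, 0.740) was within the morula. Results that rest on it are given with and without it. Defining markers followed the stage labels: the summed level of 6 oocyte genes was 845 to 5665 RPKM in oocytes and 5.65 to 9.02 in morulae, that of 5 genome activation genes was 5527 to 7074 at 8C and 1328 to 6645 in morulae, and at most 18.7 before 8C, and that of 5 blastocyst genes was highest at Bl (1259 to 2699). The summed level of 8 cumulus and granulosa genes was 21.6 to 90.8 RPKM in oocytes, 6.29 to 26.9 at 4C and 0.032 to 0.283 in morulae. Of these 8, FOXL2, AMHR2 and PTX3 were listed at 0 in all 22 libraries, and TNFAIP6 reached the highest level (90.4). The highest sum (90.8) thus rested almost wholly on TNFAIP6. HAS2 came next (highest 13.1), and FSHR, CYP19A1 and INHA stayed lower. INHA was listed at 0 in 20 libraries (highest 0.074) and CYP19A1 in 15 (highest 0.506). The part of such cells in the falls described next was not tested. From the 2-cell stage on, a library averages over several cells, so fewer cells of a type and less RNA per cell cannot be told apart.

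EIF4E and EIF4E2 rose to their highest levels in the morula, while EIF4ENIF1 and EIF4E3 fell to or near their lowest. EIF4E1B was low at every stage, and its highest levels were in PN, 2C and 4C embryos. However, PN library 2 (0.754 RPKM) and 4C library 2 (0.387) were below the highest oocyte (2.31). EIF4EBP1 was at or near 0 RPKM before the 8-cell stage, apart from 1 PN library. Its blastocyst levels were the highest, but Mo library 3 was close to the lower of them (3.81 against 3.86 RPKM). Of the 7 entries, 6 passed the filter of at least 1 RPKM in at least 2 libraries. A call here is an adjusted p under 0.05 from limma on log2(RPKM + 1), adjusted over all 14312 entries tested. The limma F test over the 9 stages called 5 of the 6, against 68.3% of all entries, and EIF4E1B had an adjusted p of 0.0534.

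**Figure D1:**
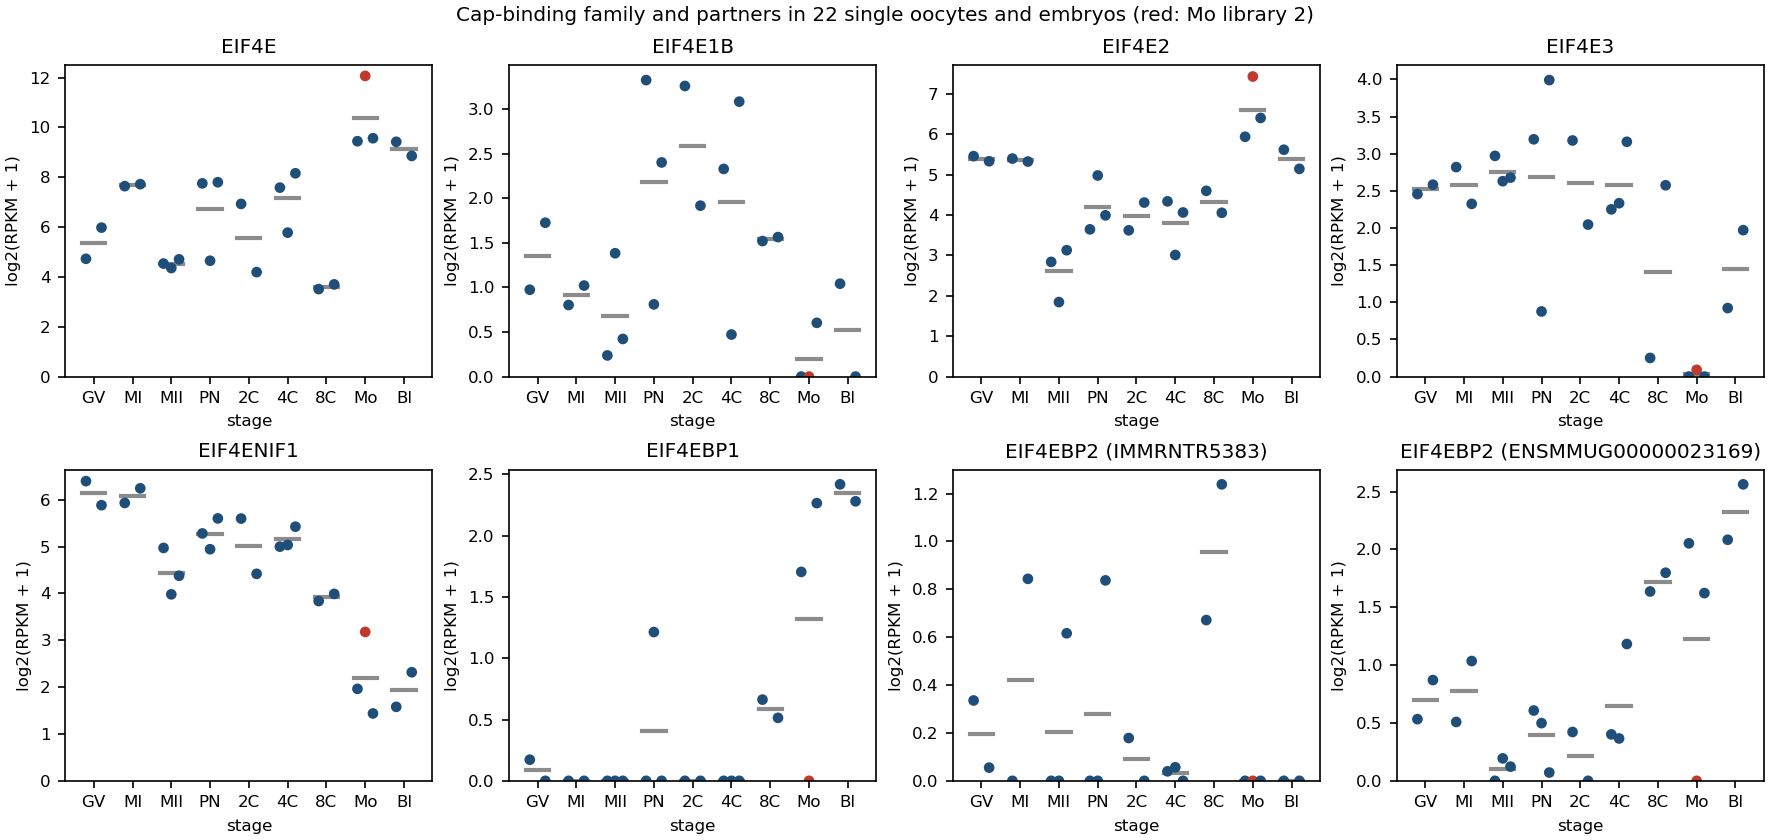
Each panel plots 1 entry, with log2(RPKM + 1) on the vertical axis and the 9 stages on the horizontal axis; points are single libraries, grey bars are stage means, and Mo library 2 is red. The 3 morula libraries of EIF4E (697, 4295 and 758 RPKM) lie above every earlier library, while those of EIF4E3 (0 to 0.065 RPKM) lie below every other library.

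EIF4E (ENSMMUG00000011066, chromosome 5, 91793454 to 91842245) was at its lowest in the 8-cell embryos, 10.4 and 12.0 RPKM. The morulae had 697, 4295 and 758 RPKM, and the blastocysts 686 and 463. Every morula was above every library of the 7 earlier stages, whose highest value was 285 RPKM, and the 8-cell and morula libraries did not overlap. From 8C to Mo the mean went from 11.2 ± 1.14 (SD, n = 2) to 1917 ± 2060.1 RPKM (SD, n = 3), a rise of 6.76 on the log2(RPKM + 1) scale (SE 0.97; limma adjusted p = 3.64e-05). Without Mo library 2 the morula mean was 728 RPKM, and the rise was 5.91 (SE 0.92; limma adjusted p = 9.83e-05). Ranked among all entries of a library, EIF4E was 3506th and 2801st in the 8-cell embryos and 119th, 4th and 126th in the morulae. Of the 6 tested members, limma called 3 from 8C to Mo, 2 higher and 1 lower, against 25.4% of all entries (5.39% higher and 20.0% lower). The median change of all entries was -0.38 on the log2 scale, or -0.25 after median-of-ratios scaling of the libraries.

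The morula level of EIF4E also exceeded that of the stages before its low point. From MII (22.2, 19.5 and 25.1 RPKM) to Mo it rose by 5.83 on the log2 scale (SE 0.86; limma adjusted p = 2.11e-05), and by 4.97 without Mo library 2 (limma adjusted p = 8.31e-05). From 4C (191, 53.9 and 285 RPKM) to Mo the rise was smaller, 3.19 (SE 0.86; limma adjusted p = 0.00636), and 2.33 without Mo library 2 (limma adjusted p = 0.0331). The groups did not overlap in either comparison. From 4C to Mo, limma called 6 of 6 tested members, 3 in each direction, against 39.2% of all entries (13.3% higher and 25.8% lower). Between MII and Mo it called 5 of 6, 3 higher and 2 lower, against 42.4% (12.9% higher and 29.5% lower). The call of EIF4E from 4C to Mo was lost when only the stages compared were fitted (limma adjusted p = 0.0570). From Mo to Bl no member was called by limma (2 at an unadjusted p under 0.05), against 14.1% of all entries. EIF4E changed by -1.22 there (95% interval -3.25 to 0.81, limma adjusted p = 0.510). Without Mo library 2 that change was -0.37 (95% interval -2.30 to 1.57, limma adjusted p = 0.984).

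Before the morula, EIF4E levels went up and down between stages. The GV oocytes had 25.5 and 62.1 RPKM, and the MI oocytes 199 and 210.3, with no overlap, but the difference of 2.33 on the log2 scale was not called (limma adjusted p = 0.895). No member was called by limma from GV to MI (1 at an unadjusted p under 0.05), against 0.587% of all entries. From MI to MII the level fell by 3.15 (SE 0.97; limma adjusted p = 0.0499). That value lies at the threshold, and the call was lost when any 1 of the 5 MI or MII libraries was left out (limma adjusted p from 0.0856 to 0.237), with a pseudocount of 0.1 (0.0703), with no filter (0.103), after median-of-ratios scaling (0.136) and with the replicate number as a block (0.0503). EIF4E was 1 of 2 members called from MI to MII, both lower, against 8.48% of all entries (6.99% lower). From 4C to 8C EIF4E fell by 3.57 (SE 0.97; limma adjusted p = 0.0106), the 1 member called there, against 24.0% of all entries (10.2% lower). Without 8C library 1 that p was 0.0706.

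EIF4E differed widely between embryos of 1 stage before the 8-cell stage. PN embryos had 215, 24.1 and 222 RPKM, and 2-cell embryos 121 and 17.3. With 53.9 RPKM in 4C library 2, against 191 and 285, the low library at each of these stages was library 2, and EIF4E1B was lowest in the same 3 libraries. EIF4E2 was instead higher in PN library 2 (30.5 RPKM, against 11.5 and 14.9) and 2C library 2 (18.8, against 11.3), but lowest in 4C library 2 (7.05, against 19.2 and 15.7). The numbers do not link libraries of different stages in the labels. PN library 2 had 9784 entries at 1 RPKM or more, against 8774 and 9058 in the other PN libraries. 2C library 2 had 8094, against 8849, and 4C library 2 had 8098, against 8196 and 8578. The part of these differences in the levels was not tested. No member was called by limma from MII to PN (3 at an unadjusted p under 0.05), against 7.66% of all entries. Without PN library 2, EIF4E was called higher at PN than at MII (limma adjusted p = 0.0303). From PN to 2C and from 2C to 4C limma called no member and none had an unadjusted p under 0.05, against 0.468% and 0.573% of all entries.

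EIF4E2 (ENSMMUG00000022151, chromosome 12, 96441244 to 96473795), the repressive cap-binding member, had its lowest mean level in MII oocytes and its highest in morulae. With 7.05 RPKM, 4C library 2 was below MII library 3 (7.74). The immature oocytes were close to each other, with 42.9 and 39.2 RPKM at GV and 41.1 and 39.0 at MI. The MII oocytes had 6.15, 2.59 and 7.74 RPKM, all below every immature oocyte. EIF4E2 fell by 2.79 on the log2 scale from GV to MII (SE 0.56; limma adjusted p = 0.00421) and by 2.76 from MI to MII (SE 0.56; limma adjusted p = 0.00505). The first call was lost without GV library 1 (limma adjusted p = 0.0705), and the second without MI library 1 (0.0696), without MI library 2 (0.0576) and after median-of-ratios scaling (0.0520). From GV to MII limma called 2 of 6 members, both lower, against 9.31% of all entries (8.97% lower). The levels at the next stage, 11.5 to 30.5 RPKM at PN, gave a difference of 1.60 from MII that was not called (limma adjusted p = 0.0572). It was called with a filter of at least 5 RPKM in 2 libraries and without Mo library 2 (limma adjusted p = 0.0471 and 0.0216).

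The 8-cell embryos had 23.2 and 15.6 RPKM of EIF4E2, and the morulae 60.2, 171 and 83.5. All 3 morulae were above every library of every other stage. EIF4E2 rose by 2.26 from 8C to Mo (SE 0.56; limma adjusted p = 0.00517), and by 1.84 without Mo library 2 (limma adjusted p = 0.0149). That call was lost without 8C library 2 (limma adjusted p = 0.0589) and when only the stages compared were fitted (0.108). The rise of 3.98 from MII (SE 0.50; limma adjusted p = 2.93e-06) and that of 2.78 from 4C (SE 0.50; limma adjusted p = 1.83e-04) were called in all alternatives tried. Blastocysts, with 48.0 and 34.3 RPKM, lay below every morula, and the difference from Mo was not called (-1.21, limma adjusted p = 0.174). Without Mo library 2 that difference was -0.79 (limma adjusted p = 0.431).

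EIF4E1B (ENSMMUG00000000142, chromosome 6, 173131163 to 173133888), the form known from oocytes, was measured at low levels in this table. Oocytes had 0.965 and 2.31 RPKM at GV, 0.745 and 1.03 at MI, and 0.179, 1.61 and 0.340 at MII. The early embryos reached higher values, 9.04, 0.754 and 4.29 at PN, 8.59 and 2.78 at 2C, and 4.03, 0.387 and 7.49 at 4C. Ranges of neighbouring stages overlapped, and the difference of 1.50 from MII to PN was not called (limma adjusted p = 0.180). The 8-cell embryos had 1.87 and 1.96 RPKM. In morulae EIF4E1B was listed at 0, 0 and 0.519 RPKM, and in blastocysts at 1.06 and 0. The number of reads behind these values, estimated from the steps of the values, was about 67 at most (2C library 1) and 5 in the 1 morula above 0, so the low levels rest on few reads. The length over which its reads were counted, estimated from the same steps, was about 546 bases, and whether that covers the whole transcript was not tested, so its level against the other members is uncertain. From 4C to Mo EIF4E1B fell by 1.76 on the log2 scale (SE 0.64; limma adjusted p = 0.0362), and the groups overlapped. The call was lost without 4C library 1 (limma adjusted p = 0.108), 4C library 3 (0.189), Mo library 1 (0.0888) or Mo library 2 (0.0745), with no filter (0.0742) and when only the stages compared were fitted (0.123). From MII to Mo the difference was -0.48 (95% interval -1.83 to 0.87; limma adjusted p = 0.608).

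EIF4E3 (ENSMMUG00000007780, chromosome 2, 64484978 to 64530055), the atypical member, was present at similar levels in all oocytes, 4.01 to 6.84 RPKM over the 7 libraries. It differed more between the early embryos, with 8.15, 0.836 and 14.9 RPKM at PN, 8.05 and 3.13 at 2C, and 3.76, 4.04 and 7.94 at 4C. The 8-cell embryos differed from each other, with 0.190 and 4.96. Morulae were listed at 0, 0.065 and 0 RPKM, below all 19 other libraries, and blastocysts had 0.895 and 2.92. EIF4E3 fell by 2.73 from MII to Mo (SE 0.66; limma adjusted p = 0.00235) and by 2.55 from 4C to Mo (SE 0.66; limma adjusted p = 0.00439), and both calls held in all alternatives tried. Without Mo library 2 the adjusted p from limma was 0.00479 and 0.00834. The difference of -1.38 from 8C to Mo was not called (95% interval -2.92 to 0.16; limma adjusted p = 0.189).

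EIF4ENIF1 (ENSMMUG00000031035, chromosome 10, 75332989 to 75390180), which carries EIF4E into repressed mRNA granules and the nucleus, had its highest levels in immature oocytes. GV oocytes had 83.4 and 58.1 RPKM, MI oocytes 60.1 and 74.9, and MII oocytes 30.4, 14.8 and 19.8, with no overlap between the immature and the MII libraries. From GV to MII it fell by 1.70 (SE 0.52; limma adjusted p = 0.0461), a call that was lost in 9 of 12 alternatives, among them without GV library 1 (0.346), GV library 2 (0.130), MII library 2 (0.169) and MII library 3 (0.0968). From MI to MII the difference of -1.65 was not called (limma adjusted p = 0.0559), but it was with a filter of 5 RPKM (0.0421) and without Mo library 2 (0.0132), whose spread the fit pools with that of the other stages. PN, 2C and 4C embryos had 20.4 to 47.6 RPKM.

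The 8-cell embryos had 13.3 and 14.9 RPKM of EIF4ENIF1, the morulae 2.90, 8.06 and 1.71, and the blastocysts 1.99 and 3.99. Every library from the morula on was below every earlier one. EIF4ENIF1 fell by 2.96 from 4C to Mo (SE 0.46; limma adjusted p = 4.65e-05) and by 2.25 from MII to Mo (SE 0.46; limma adjusted p = 6.06e-04), and both calls held in all alternatives tried. Mo library 2 had the highest of the 3 morula levels, and without it the changes were -3.45 and -2.74 (limma adjusted p = 2.41e-06 and 2.86e-05). Between 8C and Mo it fell by 1.72 (SE 0.52; limma adjusted p = 0.0195). This call was lost without 8C library 1 (limma adjusted p = 0.0699), 8C library 2 (0.0980) or Mo library 3 (0.0781), after median-of-ratios scaling (0.107) and when only the stages compared were fitted (0.227). The difference of -1.24 from 4C to 8C was not called (limma adjusted p = 0.0910), but it was without Mo library 2 (0.0312).

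EIF4EBP1 (ENSMMUG00000002342, chromosome 8, 38487771 to 38515404), the mTORC1-controlled inhibitor of EIF4E, was listed at 0 in every MI, MII, 2C and 4C library. GV library 1 had 0.127 RPKM, worth about 1 read, and PN library 2 had 1.32. The 8-cell embryos had 0.583 and 0.428, the morulae 2.26, 0 and 3.81, and the blastocysts 4.35 and 3.86. The blastocysts were above all 20 other libraries, though only narrowly above Mo library 3 (3.86 against 3.81). Mo library 2 was listed at 0 while the other 2 morulae were above every earlier library. EIF4EBP1 was called higher at Mo than at 4C (limma adjusted p = 0.0167) and than at MII (0.0155), with no fold given since both earlier groups are listed at 0. The calls were lost without Mo library 1 (limma adjusted p = 0.0663 and 0.0620) or Mo library 3 (0.115 and 0.108), and when only the stages compared were fitted (0.162 and 0.157). Without Mo library 2 the adjusted p from limma was 7.79e-05 and 6.41e-05. The difference of 0.74 from 8C to Mo on the log2 scale was not called (limma adjusted p = 0.282), and without Mo library 2 it was 1.40 and called (limma adjusted p = 0.00695). From Mo to Bl the difference of 1.03 was not called (limma adjusted p = 0.166), and without Mo library 3 it was (0.0270). Without Mo library 2, the morula listed at 0, that difference shrank to 0.37 and was not called (limma adjusted p = 0.668).

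EIF4EBP2, the second inhibitory binding protein, was matched by the rule to an entry whose name could not be checked (IMMRNTR5383, chromosome 2, 45672941 to 45679017). That entry reached 1 RPKM in 1 library only (8C library 2, 1.36), was listed at 0 in all morulae and blastocysts, and was not tested. Another entry outside the rule (ENSMMUG00000023169, chromosome 9, 66584939 to 66608924) carries the same gene name in a further column of the file, and which of the pair is the gene was not settled. Its level was at most 1.27 RPKM in every library up to 4C. It was 2.11 and 2.48 at 8C, 3.15, 0 and 2.08 at Mo, and 3.24 and 4.91 at Bl. As for EIF4EBP1, Mo library 2 was listed at 0 and the blastocysts were above all other libraries. From MII to Mo this entry was higher by 1.12 (SE 0.42; limma adjusted p = 0.0375), and by 1.73 without Mo library 2 (limma adjusted p = 5.02e-04). That call was lost without any 1 of the 3 MII libraries or without Mo library 1 or 3 (limma adjusted p from 0.0669 to 0.210), with a pseudocount of 0.1 (0.0717), with no filter (0.0636) and when only the stages compared were fitted (0.184). From 4C to Mo it was 0.57 and not called (limma adjusted p = 0.303), and it was called without Mo library 2 (1.19; limma adjusted p = 0.0108).

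**Figure D2:**
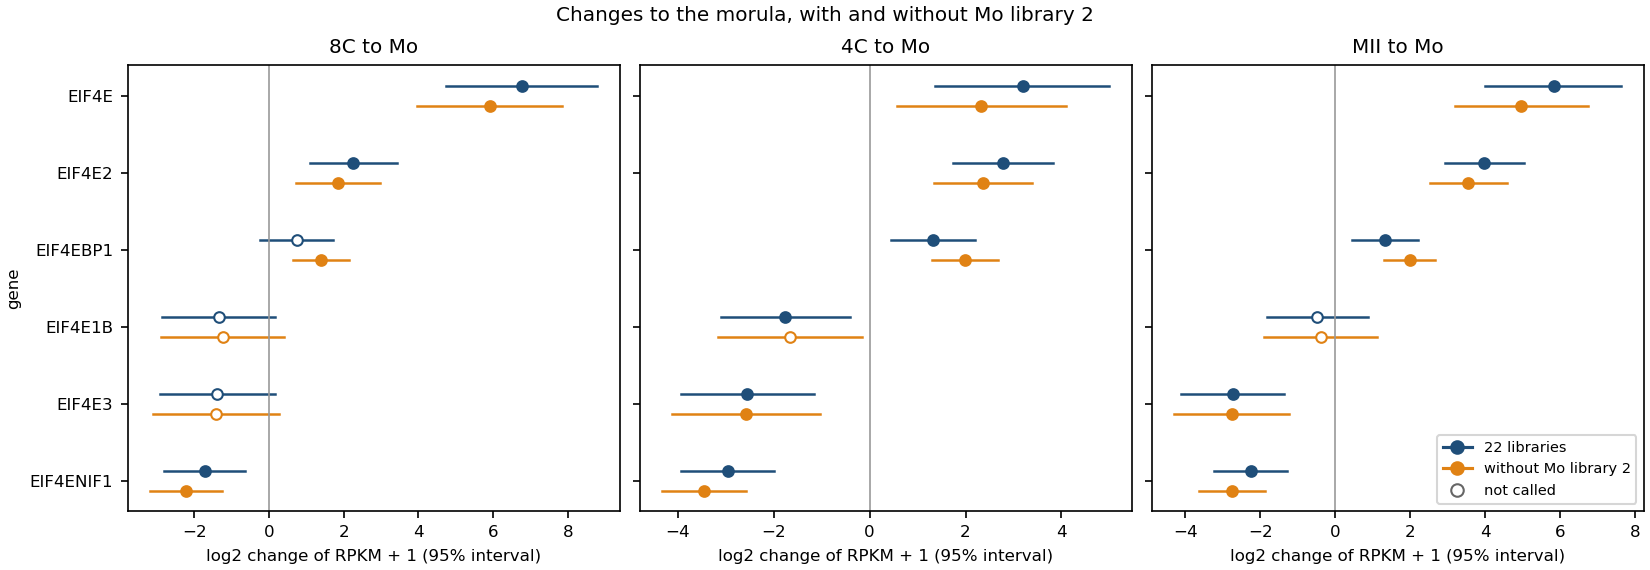
Points give each tested member's change in log2(RPKM + 1) to the morula from 8C, 4C and MII, with 95% intervals as lines; blue uses all 22 libraries, orange leaves out Mo library 2, and open points were not called. EIF4E from 8C goes from 6.76 to 5.91 without that library, EIF4EBP1 from 8C becomes called, and EIF4E1B from 4C is no longer called.

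The plot of changes to the morula sets the members side by side with and without Mo library 2. The 3 comparisons share the morula libraries. Without that library, limma called 4 of 6 members from 8C to Mo (26.1% of all 14264 entries then tested), 5 from 4C to Mo (40.7%) and 5 from MII to Mo (43.5%). Each of the 6 tested members kept its sign in these 3 comparisons. The morula mean was 1917 RPKM with it and 728 without it for EIF4E, 4.22 and 2.31 for EIF4ENIF1, and 2.02 and 3.04 for EIF4EBP1.

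The balance between members can be read within each library, where scaling between libraries has no part. EIF4E made up 90.0% to 96.2% of the summed RPKM of the 4 cap-binding members in morulae and 92.6% to 93.2% in blastocysts. In the 8-cell embryos its share was 29.1% and 34.7%, and EIF4E2 was the largest member with 65.1% and 45.3%. EIF4E2 also led in GV library 1 (58.0%), PN library 2 (54.3%) and 2C library 2 (44.8%), and EIF4E led in all other libraries. EIF4E3 reached 19.3%, 18.0% and 14.0% in the MII oocytes and 14.4% in 8C library 2, and at most 7.44% elsewhere. EIF4E1B was at most 6.62% (2C library 2). The summed level of the 4 members was 35.6 and 34.5 RPKM at 8C and 757, 4466 and 842 at Mo.

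**Figure D3:**
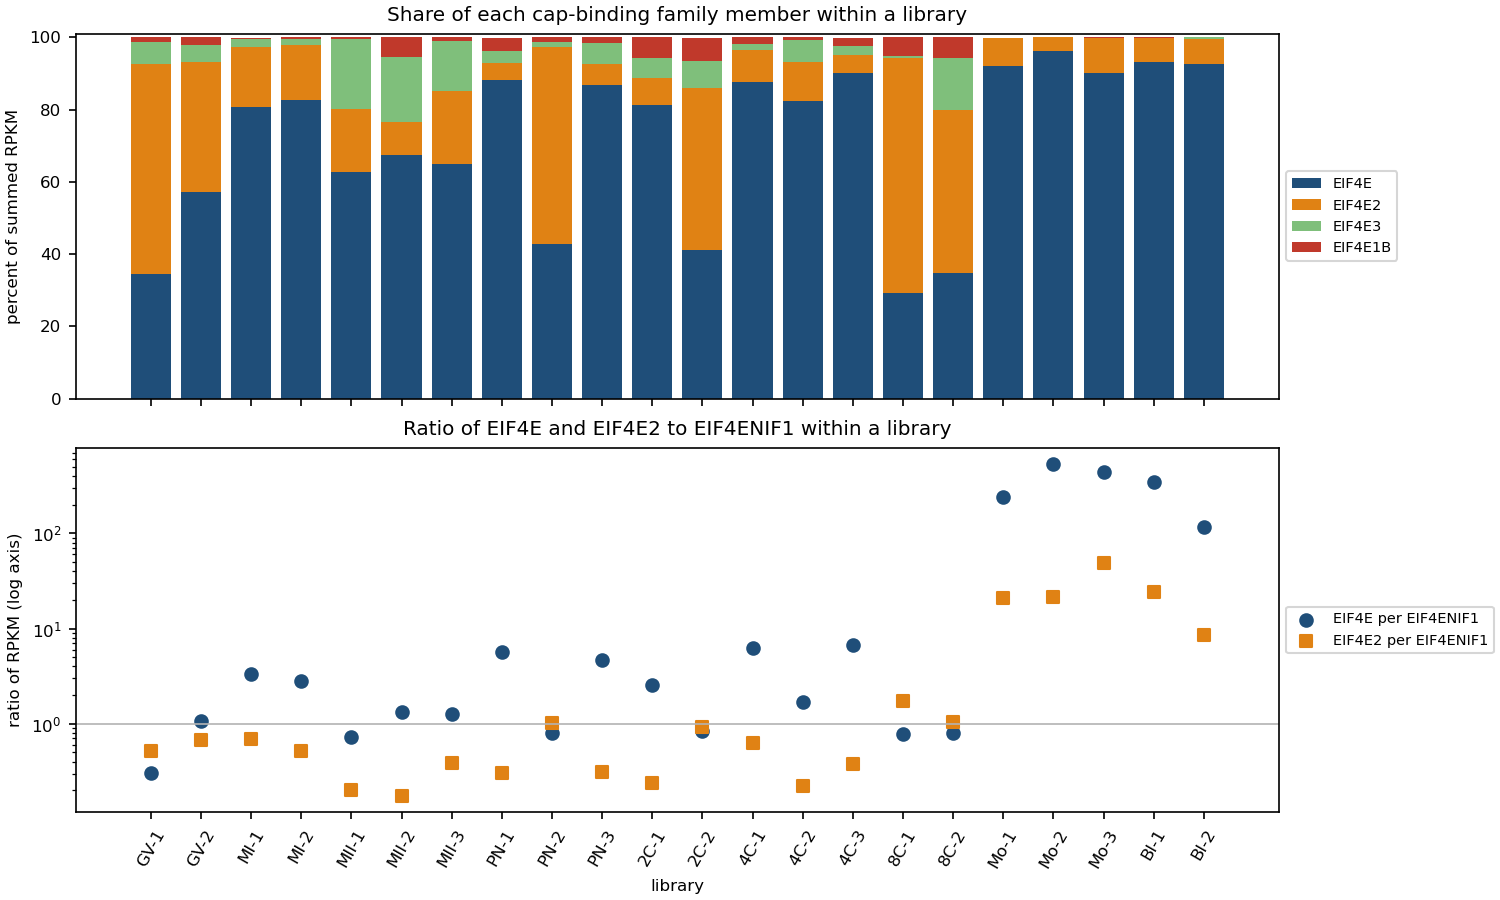
The upper panel stacks the percent of summed RPKM of the 4 cap-binding members for each library, and the lower panel plots the ratio of EIF4E (circles) and EIF4E2 (squares) to EIF4ENIF1 on a log axis. EIF4E holds 29.1% and 34.7% in the 8C libraries and at least 90.0% in Mo and Bl, and its ratio to EIF4ENIF1 is at least 116 in those 5 libraries and at most 6.78 in the others.

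Relative to EIF4ENIF1, EIF4E was at 0.778 and 0.806 RPKM per RPKM in the 8-cell embryos. The ratio was 240.1, 533 and 443 in the morulae and 344 and 116 in the blastocysts. In all 17 libraries up to 8C it lay between 0.306 and 6.78, so the groups before and after the 8-cell stage did not overlap. The low EIF4E libraries of the early stages also had low ratios, 0.807 in PN library 2 and 0.848 in 2C library 2, against 2.54 to 5.68 in the other PN and 2C libraries. EIF4E2 per EIF4ENIF1 was 1.74 and 1.05 at 8C and 20.7, 21.2 and 48.8 at Mo, with Mo library 2 between the other morulae.

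By stage mean, EIF4E was ordered Mo, Bl, MI, 4C, PN, 2C, GV, MII and 8C. The libraries of neighbours in that order overlapped from MI down to GV, while Mo and Bl, Bl and MI, GV and MII, and MII and 8C did not overlap. For EIF4E2, with the order Mo, Bl, GV, MI, 8C, PN, 2C, 4C and MII, only Mo and Bl and then MI and 8C were separate. EIF4ENIF1 was separate between MI and PN and between 8C and Mo. EIF4E3 was separate only between Bl and Mo, its lowest stage. EIF4EBP1 was separate only between Bl, its highest stage, and Mo, and there narrowly (3.86 against 3.81 RPKM). EIF4E1B overlapped between all neighbours of its order, which ran from 2C and PN down to Bl and Mo.

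The entries with a level pattern most like that of EIF4E, by Pearson's r of log2(RPKM + 1) over 22 libraries among 10082 candidates, were PPP6R3 (r = 0.934), ABCE1 (0.896), ZC3H4 (0.890), FARSB (0.888) and MAP3K12 (0.887). Without Mo library 2 these values were 0.844 to 0.911. For EIF4E1B they were GNA13 (0.832), KALRN (0.783), CLASP1 (0.767), MS4A10 (0.767) and MAPK6 (0.751). Between the 6 tested members, r was highest for EIF4E3 with EIF4ENIF1 (0.72) and for EIF4E with EIF4E2 (0.64), and lowest for EIF4EBP1 with EIF4ENIF1 (-0.82). The EIF4EBP2 entry outside the rule had a higher r, 0.80, with EIF4EBP1. EIF4EBP1 was above 0 in only 8 of the 22 libraries, so its r rests largely on where it was detected. These are descriptions: all values share the libraries, their depth and the order of stages.

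The partners of EIF4E in translation initiation were called in both directions. The list of EIF4G, EIF4A, EIF4B, EIF4H, poly(A)-binding and PAIP genes had 17 tested entries. From 8C to Mo limma called 2 higher and 2 lower, against 25.4% of all entries, with a median log2 change of -0.30 against -0.38 over all entries. The count of 4 was 2 without 8C library 1 and 1 when only the stages compared were fitted. PAIP1, which links poly(A)-binding protein to initiation, fell from 1263 ± 177 RPKM (SD, n = 3) at 4C to 264 ± 15.6 (n = 2) at 8C and 14.9 ± 5.14 (n = 3) at Mo. The log2 changes were -2.25 and -4.11 (limma adjusted p = 0.00102 and 1.48e-06), and both calls held in all alternatives tried. The helicase gene EIF4A1 rose from 5.78 ± 2.02 RPKM at 4C to 94.5 ± 70.2 at 8C (3.63 on the log2 scale; limma adjusted p = 0.00167), while its paralog EIF4A2 fell from 1613 ± 489 to 485 ± 123 (-1.70; limma adjusted p = 0.0300). The EIF4A1 call was lost without 8C library 1 (limma adjusted p = 0.0514), and the EIF4A2 call without 4C library 1 or 3 or either 8C library (0.0600 to 0.195) or with the replicate block (0.0507). From 4C to 8C the list had 2 entries called in each direction, against 24.0% of all entries, and a median of -0.33 against 0.00, and 1 or 2 calls were left without 4C library 1 or 3 or either 8C library. From GV to MII it had 2 called lower (8.97% of all entries) and none higher, with a median of 0.14 against -0.19. PAIP2, an inhibitor of poly(A)-binding protein, fell there from 352 ± 10.7 to 37.3 ± 4.44 RPKM (-3.21; limma adjusted p = 8.43e-04), in all alternatives tried, while the other call (PABPC1L) was lost without either GV library.

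**Figure D4:**
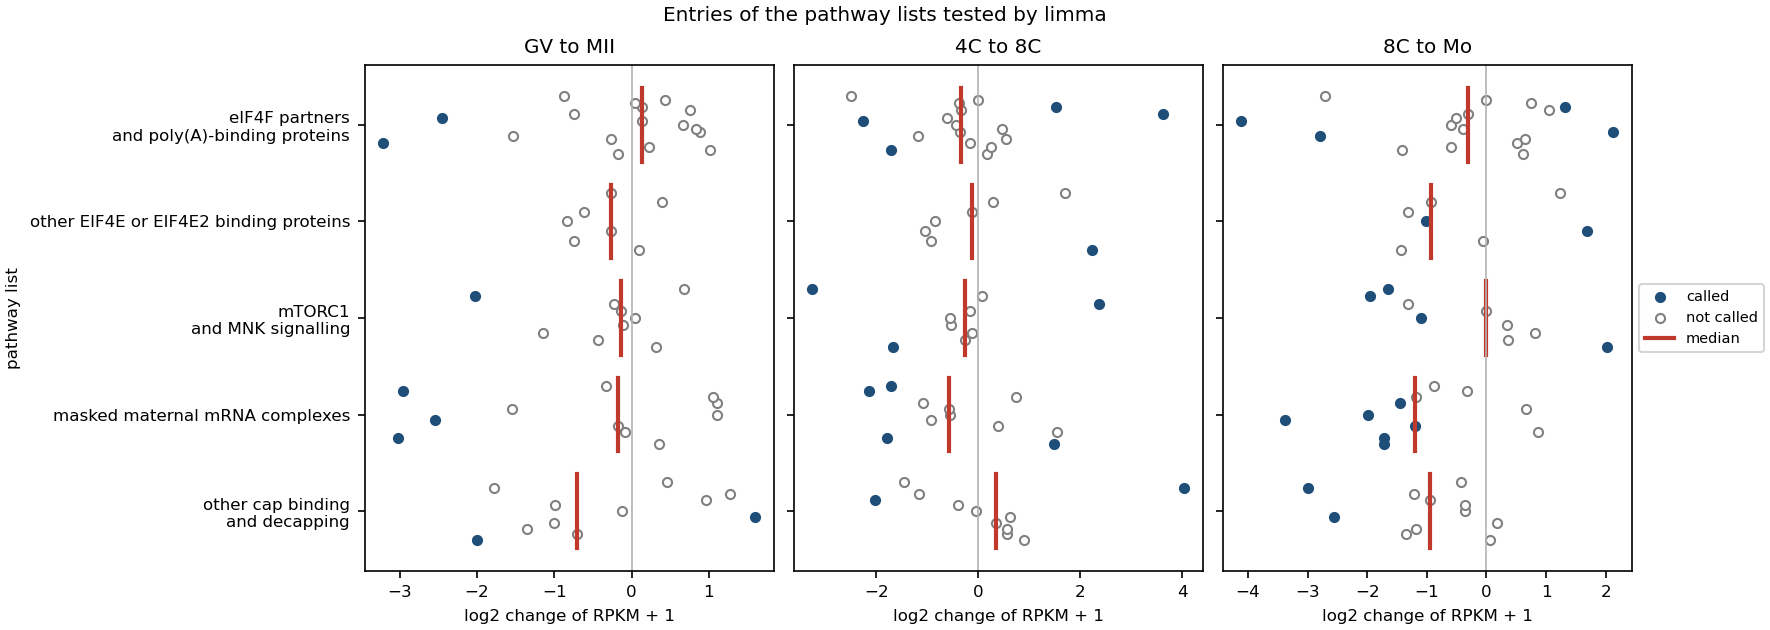
Each point is the change in log2(RPKM + 1) of 1 tested entry of the 5 pathway lists from GV to MII, 4C to 8C and 8C to Mo; filled points were called by limma and red bars are list medians. From 8C to Mo the masked mRNA list has 6 of 11 entries called lower and none higher, with a median of -1.20.

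The proteins of masked maternal mRNA, with which EIF4ENIF1 and EIF4E1B are known to assemble, gave 11 tested entries. Of the 13 genes listed 11 were found, not all of them tested, and PATL1 has 2 of the tested entries. From 8C to Mo limma called 6 lower, against 20.0% of all entries called lower, and none higher, with a median of -1.20 against -0.38 over all entries. PATL2, an oocyte repressor of translation, fell from 10.3 ± 4.00 RPKM (SD, n = 2) to 0.061 ± 0.060 (SD, n = 3), a log2 change of -3.37 (limma adjusted p = 8.66e-05) called in all alternatives tried. Its paralog PATL1 (ENSMMUG00000017287) fell from 5.69 ± 2.29 to 0.817 ± 1.06 (-1.99, limma adjusted p = 0.00380), a call lost without 8C library 1 (0.0585) and when only the stages compared were fitted (0.153). A second entry named PATL1 (IMMRNTR761) changed by -0.88 and was not called (limma adjusted p = 0.207). CPEB2, which binds the cytoplasmic polyadenylation element, fell from 30.2 and 13.9 RPKM at 8C to 3.92, 5.89 and 7.41 at Mo (-1.71; limma adjusted p = 0.0198), a call lost without 8C library 1 (0.219) or Mo library 1 (0.0606), with a pseudocount of 0.1 (0.0548), after median-of-ratios scaling (0.0683) and when only the stages compared were fitted (0.155). The count of 6 was 2 without 8C library 1 and 3 without Mo library 1 or Mo library 2, 3 with the replicate block and 2 when only the stages compared were fitted. From 4C to 8C the list had 1 entry called higher and 3 lower, against 24.0% of all entries in both directions, with a median of -0.58 against 0.00. None of the 4 was called without 8C library 1, 2 were without 4C library 1 and 1 was without 4C library 2. The count was 2 with a pseudocount of 0.1, with no filter or with the replicate block, and 0 when only the stages compared were fitted.

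From GV to MII 3 of the 11 entries were called lower, against 8.97% of all entries, and none higher, with a median of -0.17 against -0.19. These were ZAR1, an RNA-binding protein that masks oocyte mRNA, from 159 ± 11.1 to 19.4 ± 6.55 RPKM (-3.02; limma adjusted p = 0.00411), PATL2 from 75.3 ± 13.9 to 12.3 ± 3.46 (-2.54; 0.00501) and YBX2, the germ-cell Y-box protein, from 42.2 ± 1.63 to 5.01 ± 2.69 (-2.96; 0.00569). All 3 calls were lost without GV library 1 (limma adjusted p from 0.0692 to 0.0902), and that of YBX2 also without GV library 2 (0.0576). The count was 6 when only the stages compared were fitted.

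The kinases that act on EIF4E and its binding proteins, mTORC1 and the MNKs, had 9 tested entries. MKNK1, which phosphorylates EIF4E, fell from 59.5 ± 21.2 RPKM (SD, n = 3) at 4C to 5.20 ± 1.52 (n = 2) at 8C, a log2 change of -3.25 (limma adjusted p = 3.79e-04) called in all alternatives tried. In total 1 entry was called higher and 2 lower from 4C to 8C (median -0.25 against 0.00; 24.0% of all entries called), and 1 higher and 3 lower from 8C to Mo (median 0.00 against -0.38; 25.4% called). The median of 0.00 is the change of MLST8, which is counted among the 9 entries but was listed at 0 throughout 8C and Mo. The first count of 3 was 1 without 4C library 1 or 8C library 2, and the second count of 4 was 1 without either 8C library and 2 without Mo library 3. When only the stages compared were fitted, the counts were 1 and 0. MTOR fell from 11.3 ± 0.556 at 8C to 2.92 ± 3.03 at Mo (-1.96; limma adjusted p = 0.0179), and its activator RHEB rose from 18.1 ± 9.50 to 94.2 ± 86.7 (2.03; limma adjusted p = 0.0149). The MTOR call was lost without 8C library 1 (limma adjusted p = 0.0843), 8C library 2 (0.0702) or Mo library 3 (0.0834), after median-of-ratios scaling (0.0874) and when only the stages compared were fitted (0.258). That of RHEB was lost without 8C library 2 (0.172) and when only the stages compared were fitted (0.293). RHEB had its highest level of all libraries, 194 RPKM, in Mo library 2, against 50.9 and 37.8 in the other morulae. MLST8, a subunit shared by both mTOR complexes, was listed at 0 in all 3 morulae and had 1.80 and 1.53 RPKM in the blastocysts, the only libraries in which it reached 1 RPKM, so that it passed the filter through them alone and its test is not used.

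Other proteins that bind EIF4E or EIF4E2 gave 7 tested entries, of which 1 was called higher and 1 lower from 8C to Mo (median -0.93 against -0.38; 25.4% of all entries called) and 2 higher from Mo to Bl (median 0.61 against 0.23; 14.1% called). Leaving out 8C library 2 or Mo library 2 gave 1 call from 8C to Mo and Mo library 3 none, and from Mo to Bl leaving out Bl library 2 gave none and any other library of the 2 stages 1. Both counts were 0 when only the stages compared were fitted. The count from 8C to Mo was 1 with a filter of 5 RPKM or the replicate block, and that from Mo to Bl was 0 with a pseudocount of 0.1 and 1 after median-of-ratios scaling or with the block. The third inhibitory binding protein, EIF4EBP3, has 2 entries. ENSMMUG00000001704 was listed at 0 in all 4C libraries and had 6.35 and 2.05 RPKM at 8C (limma adjusted p = 0.00618; 0.122 without 8C library 1). ENSMMUG00000019582 had 9.29 and 1.13 RPKM at 8C and 6.23, 36.1 and 3.92 at Mo, with the highest level in Mo library 2. The list of nuclear cap-binding and decapping genes had 11 tested entries, 1 called higher and 1 lower from 4C to 8C (median 0.35 against 0.00; 24.0% of all entries called) and 2 lower from 8C to Mo (median -0.95 against -0.38; 20.0% called lower), and 1 of the calls from 4C to 8C (DCP2) was lost without 8C library 1 and after median-of-ratios scaling. Both calls from 8C to Mo were lost when only the stages compared were fitted. An entry named NCBP1 in the file (IMMRNTR2059, name not checked), a nuclear cap-binding subunit, rose from 1.07 ± 0.833 RPKM at 4C to 31.3 ± 1.09 at 8C (4.04; limma adjusted p = 7.74e-05), in all alternatives tried. The Ensembl entry of the same name (ENSMMUG00000012281) had 21.6 to 32.1 RPKM at 4C and 19.5 in both 8-cell embryos. DCP1A, a decapping activator, fell from 27.6 ± 12.0 at 8C to 3.74 ± 1.22 at Mo (-2.56; limma adjusted p = 3.34e-04), a call lost when only the stages compared were fitted (0.0601).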

How the data were processed

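The 22 columns of the 1 RPKM table that the authors deposited were each matched to a sample title. Per the submitters' processing notes the build is Mmul_8.0.1; the file names none, and positions are printed as deposited. Aligner, counting program and annotation are not given in the sources used here. Per the labels' protocols, a SMARTer Ultra Low Input kit amplified the RNA before TruSeq DNA library preparation. RPKM is relative to a library's total and does not measure RNA per embryo.

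Members and lists were chosen with earlier results of these data known. Symbols came from the Ensembl name of the identifier, otherwise from the file. Depth was estimated from features under 200 bp, where 466 of 508 values (91.7%) lay within 0.05 of a whole number of reads; 5 libraries allowed more than 1 depth, so read numbers are estimates.

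Log2(RPKM + 1) was fitted with limma 3.58.1 (R 4.3.3) as stage means of the 22 libraries (residual degrees of freedom 13; moderated variances with trend and robust options). The 14312 entries that reached 1 RPKM in 2 or more libraries entered the test of each of the 8 neighbouring stage pairs, of MII against GV, of Mo against 4C and MII, and of all stages (F test). Tests were 2-sided, with Benjamini-Hochberg adjustment within each comparison. The scale understates changes of low genes. All members are named. List genes are some of those called, at most 3 per direction and comparison by adjusted p. Added to these are the second entries of EIF4EBP3, NCBP1 and PATL1, chosen after their values were seen. The code was tested on simulated data. Alternatives were pseudocount 0.1, unfiltered entries, a stricter filter of 5 RPKM, median-of-ratios scaling (on the 5405 entries detected in every library), a fit of the compared stages alone, the replicate number as a block, and leaving out each library of the compared stages or Mo library 2. Figures were drawn with Python 3.11.15, pandas 2.3.3 and matplotlib 3.10.9. The main fit used every library.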

Additional observations from a re-analysis of the deposited data

How the results depend on the processing

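No called change of a member reversed its sign under any alternative. The number of members called from MI to MII was 2, and it was 1 with a pseudocount of 0.1, 1 with no filter, 0 after median-of-ratios scaling and 1 with the replicate number as a block. From GV to MII it was 2, and 1 with each of these settings and when only the stages compared were fitted. From MII to PN it was 0, and 1 with at least 5 RPKM in 2 libraries. From 4C to 8C it was 1, and 2 with no filter. From Mo to Bl it was 0, and 1 with a pseudocount of 0.1. When only the stages compared were fitted, 8C to Mo gave 1 in place of 3, 4C to Mo 3 in place of 6 and MII to Mo 4 in place of 5. The count from 8C to Mo was 4 with a pseudocount of 0.1 or no filter, and 2 after median-of-ratios scaling. With no filter 4C to Mo gave 5, and with a pseudocount of 0.1 the F test gave 6. The filter of 5 RPKM, which left 5 members tested, gave 3 for MI to MII, 5 for 4C to Mo, 4 for MII to Mo and 4 for the F test. With 1 library left out, the count ranged from 0 to 3 for MI to MII (0 without either MI library), 0 to 1 for MII to PN (1 without PN library 2 or Mo library 2), 0 to 2 for 4C to 8C (0 without 8C library 1, 2 without Mo library 2), 1 to 4 for 8C to Mo (1 without 8C library 2), 0 to 1 for Mo to Bl (1 without Mo library 3), 0 to 2 for GV to MII (0 without GV library 1), 4 to 6 for 4C to Mo, 4 to 5 for MII to Mo and 4 to 6 for the F test; GV to MI, PN to 2C and 2C to 4C gave 0 throughout. The replicate block also raised the F test count from 5 to 6, and apart from these 3 it changed no count of members. The labels do not say whether equal numbers pair libraries. Of 78 pairs with the same number, 3 had a correlation of their deviations from the stage mean above 0.1 (range -0.18 to 0.32). Best correlated with their own number were 9 of 22 libraries. These values cannot exclude a shared donor or batch, since the deviations of a stage with only 2 libraries mirror each other. Median-of-ratios scaling moved the median change of all entries by over 0.1 in 7 comparisons, among them 4C to Mo (-0.28 to -0.11) and MII to Mo (-0.31 to -0.04). The cause of these differences was not tested.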
